A study of Homo sapiens with 6 samples.

Results

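ARHGDIB and LSP1, a pair of genes named for their expression in lymphocytes and other blood cells, were examined in SW480 cells after depletion of the splicing factor RBM39, together with LCP1, CORO1A and WAS, which are also known mainly from blood cells, and ARHGDIA, the widely expressed paralog of ARHGDIB. These 6 genes were taken from 56303 gene symbols in the deposited count table, and all 6 passed the filter on low counts that left 18243 symbols for testing. ARHGDIB and LSP1 were chosen because their increase in the knockdown was among the largest of all genes, and the others were added by function with results of these data known. The difference between the groups in these 6 genes is therefore given as a description, with a standard error and no p-value.

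SW480 cells derive from an adenocarcinoma of the human colon. Lentivirus carried either a nonsilencing short hairpin RNA, labelled shCtrl, or one that targets RBM39, labelled shRBM39. Stable lines were selected with puromycin, and mRNA was sequenced from 3 libraries of each group. The labels give shCtrl the genotype WT, although these cells carry the vector and its hairpin as well. A single hairpin label stands for each group and the lines were described as clonal, so effects of RBM39 loss, of the hairpin sequence and of the clone cannot be told apart. The study describes its replicates as independent experiments, while the labels do not say whether the cultures or lines were separate, and p-values measure the spread between these libraries.

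The proteins of these genes act on the actin cytoskeleton. ARHGDIA and ARHGDIB encode GDP dissociation inhibitors, which hold small GTPases in an inactive, soluble pool. WASP, encoded by WAS, is switched on by the small GTPase CDC42 and activates the Arp2/3 complex, which starts new actin branches. L-plastin (LCP1) bundles actin filaments, coronin-1A (CORO1A) binds filaments and the Arp2/3 complex, and LSP1 binds filaments and is a substrate of the kinase MAPKAPK2. L-plastin is also known from many carcinoma cell lines.

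Total counts ran from 18042924 to 20428901 per library, and no pair of replicates agreed within sampling noise (the chi-square statistic divided by its degrees of freedom lay between 2.1 and 4.16). RBM39 itself was 37% lower in shRBM39, with 278 ± 13.3 CPM (counts scaled to the library size with TMM factors) against 441 ± 6.53 CPM in shCtrl (SD, n = 3, edgeR adjusted p 1.24e-16). Of 16 colon epithelial marker genes, 14 could be tested, and the keratin genes KRT8 and KRT18 and the adhesion gene EPCAM were expressed at 1049, 952 and 245 RPKM (counts scaled by merged exon length and library total) in shCtrl. The markers CDX1 and CEACAM5 had at most 6 counts in any library. Scaling affects the sign of small differences: when libraries were scaled by their totals alone in place of TMM, all log2 fold changes shifted by a median of -0.12.

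The promoters of the paralogs ARHGDIB and ARHGDIA, whose levels lay far apart in these cells, differ in composition. Whether composition bears on level was not tested. RefSeq promoter windows (GRCh38.p14, 250 bases before to 50 after a start) were found for 5 of the 6 genes, with 9 start sites. The entry for LSP1 was missing. The first listed ARHGDIB start, the first ARHGDIA start and the LCP1 start are given below, 5′ to 3′ on the strand of the gene, over the 250 bases before the start. Capitals mark matches to the motifs searched.

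ARHGDIB, chr12:14948897-14949146, minus strand: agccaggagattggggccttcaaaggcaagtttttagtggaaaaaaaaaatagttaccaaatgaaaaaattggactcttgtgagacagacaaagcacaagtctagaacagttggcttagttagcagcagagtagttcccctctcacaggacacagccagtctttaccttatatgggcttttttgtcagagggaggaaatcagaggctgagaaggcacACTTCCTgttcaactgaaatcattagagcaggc
ARHGDIA, chr17:81871338-81871587, minus strand: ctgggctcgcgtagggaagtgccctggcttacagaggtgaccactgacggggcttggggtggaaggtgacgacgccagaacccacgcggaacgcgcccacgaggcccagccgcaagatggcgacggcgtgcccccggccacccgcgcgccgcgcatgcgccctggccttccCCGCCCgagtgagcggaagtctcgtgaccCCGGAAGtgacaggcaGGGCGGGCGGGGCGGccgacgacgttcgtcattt
LCP1, chr13:46182178-46182427, minus strand: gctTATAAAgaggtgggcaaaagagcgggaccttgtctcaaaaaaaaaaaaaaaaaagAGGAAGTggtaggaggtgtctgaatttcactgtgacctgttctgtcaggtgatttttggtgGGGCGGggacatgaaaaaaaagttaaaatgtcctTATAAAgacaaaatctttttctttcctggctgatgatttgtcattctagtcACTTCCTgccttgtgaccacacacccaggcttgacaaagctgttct

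Motifs were searched on both strands of the whole 300-base windows. The SP1 factor family was represented by GGGCGG, the TATA box by the letters TATAAA, and the AP-1 family by the letters TGACTCA. For E-box factors CACGTG was searched, for ETS factors either CCGGAAG or the form AGGAAGT, and for RUNX factors TGTGGTT. The ETS forms share the letters GGAAG. The ARHGDIB window held 1 match, AGGAAGT read on the opposite strand from 33 bases before the start, a motif present in 8.24% of the 35116 promoters in the table. LCP1 also held this motif, at 192 and 46 bases before its start, beside TATAAA at 247 and 97 and GGGCGG at 131. The first ARHGDIA window held 4 matches to GGGCGG, of which the 3 nearest the start overlap or touch each other, and 1 to CCGGAAG. The motif GGGCGG is common, in 45% of promoters, and CCGGAAG is present in 10.3%. GC content was 44.7% at the first ARHGDIB start, 42.7% at LCP1 and 71.7% at the first ARHGDIA start, with a median of 58.7% over the table. It was 70.7% at the first start of WAS, a gene with 0.829 RPKM in shCtrl. The second ARHGDIA start had 83.7% GC and held 9 matches, to GGGCGG and to CACGTG, which 7.26% of promoters hold. The other ARHGDIB starts each held TGACTCA, which 4.95% of promoters hold, and these overlapping windows share that match. Of the WAS windows, the first held GGGCGG after the start and the second TGTGGTT, at 48 bases before it, while CORO1A held 3 matches to GGGCGG. These matches are letters in a window, and gene counts do not show which start was used.

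ARHGDIB (chromosome 12, 14942017 to 14961728, minus strand, GRCh38) was low in control cells and several times higher in the knockdown. It had 44, 44 and 35 counts in shCtrl replicates 1, 2 and 3, and 243, 214 and 267 in shRBM39 replicates 1, 2 and 3. Every shRBM39 library thus stood far above every shCtrl library. On the CPM scale this was 1.99 ± 0.241 CPM in shCtrl and 12.9 ± 0.79 CPM in shRBM39 (SD, n = 3). The fitted log2 fold change was 2.69 (SE 0.12), a 6.45-fold difference. In bulk RNA, a change in every cell and a change in the share of cells that express a gene cannot be told apart. Per length, its mean level moved from 0.988 RPKM, above that of 21.4% of tested genes, to 5.86 RPKM, above that of 65.8%.

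LSP1 (chromosome 11, 1852970 to 1892267, plus strand), chosen in the same way, had an increase of similar size. Its counts were 71, 67 and 61 in the shCtrl libraries and 379, 325 and 377 in the shRBM39 libraries, with no overlap between the groups. Its level was 3.23 ± 0.268 CPM in shCtrl and 19.2 ± 0.308 CPM in shRBM39 (SD, n = 3). This corresponds to a fitted log2 difference of 2.57 (SE 0.10), or 5.96-fold. The mean RPKM of LSP1 was 0.618 in shCtrl, the lowest of the 6 genes, and 3.38 in shRBM39, the fourth highest. Among all 18243 tested genes, ARHGDIB and LSP1 held ranks 12 and 16 from the largest increase, which is how they were chosen. With at most 71 counts in any shCtrl library, counting error alone is a visible part of the spread of both genes there.

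LCP1 (chromosome 13, 46125920 to 46211871, minus strand) was already abundant in control cells. It had 3543, 3620 and 3598 counts in shCtrl and 4837, 4594 and 4888 in shRBM39. The groups did not overlap, at 174 ± 3.48 CPM against 255 ± 10.3 CPM (SD, n = 3). The log2 difference was 0.55 (SE 0.04). At 35.9 RPKM in shCtrl, LCP1 stood above 92.6% of tested genes, so that a gene of the blood-cell group can be among the well expressed genes of this carcinoma line before any knockdown.

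CORO1A (chromosome 16, 30182827 to 30189076, plus strand) changed little. Its counts were 211, 231 and 216 in shCtrl and 226, 220 and 222 in shRBM39. On the CPM scale the groups lay side by side without overlap, at 10.7 ± 0.207 and 11.9 ± 0.741 CPM (SD, n = 3), whereas the RPKM values, which are scaled by library totals, overlapped. The log2 difference was 0.16 (SE 0.08), and 2 standard errors either side reach from -0.01 to 0.33. An unnamed transcript of the opposite strand, RP11-455F5.5, overlaps CORO1A and had at most 49 counts in a library. The kit marks strand, but whether the counting used it is not given in the sources used here, so reads of such overlapping pairs could not be separated with certainty.

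WAS (chromosome X, 48676596 to 48691427, plus strand) was the gene with the fewest counts and was lower in the knockdown. It had 29, 45 and 43 counts in shCtrl and 20, 10 and 33 in shRBM39, and shRBM39 replicate 3 lay above shCtrl replicate 1, so the groups overlapped. The level was 1.89 ± 0.392 CPM against 1.1 ± 0.566 CPM (SD, n = 3). The fitted log2 difference was -0.76 (SE 0.26). This value was -0.47 without shRBM39 replicate 2 and -1.21 without shRBM39 replicate 3, so that single libraries decide its size.

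ARHGDIA (chromosome 17, 81867721 to 81871406, minus strand) was the most abundant of the 6. Its counts were 10375, 10841 and 10586 in shCtrl and 14397, 12406 and 13573 in shRBM39, without overlap. At 516 ± 5.2 CPM in shCtrl and 719 ± 17.1 CPM in shRBM39 (SD, n = 3), it differed by 0.48 on the log2 scale (SE 0.04), or 1.39-fold. The transcript RP11-498C9.3 lies within ARHGDIA on the opposite strand and differed by 0.39 on the log2 scale, and how the counting divided reads between them is not known.

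**Figure D1:**
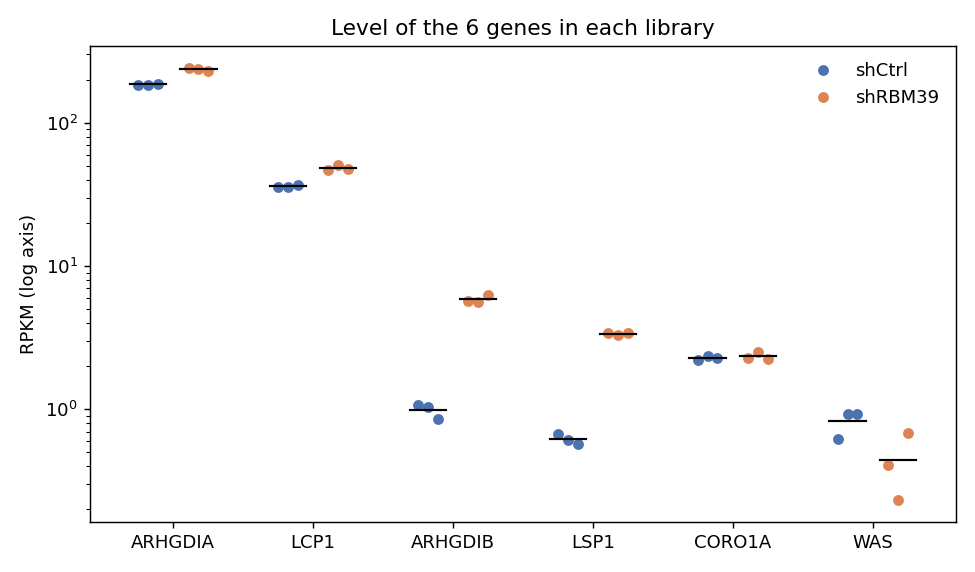
Level of each of the 6 genes in RPKM on a log axis, 1 point per library (3 shCtrl, 3 shRBM39), with the group mean as a bar. ARHGDIB and LSP1 sit near or below 1 RPKM in shCtrl and between 3.31 and 6.28 RPKM in shRBM39, while ARHGDIA and LCP1 are high in both groups and WAS overlaps.

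The following counts only describe the choice, since the genes were picked with this contrast known, and nothing is read from them. By edgeR's quasi-likelihood test, with the threshold at an adjusted p of 0.05, 4 of the 6 genes lay on the higher side and WAS on the lower, beside 59.1% of all tested genes called in either direction, 29.2% higher and 29.9% lower. CPM values of the groups did not overlap in 5 of the 6, beside 63.3% of all tested genes. ARHGDIB and LSP1, picked for their large increase, were past 2-fold, beside 6.52% of all tested genes in either direction and 2.36% in the same direction. The call of WAS was absent under DESeq2 and without shCtrl replicate 2 or shRBM39 replicate 2, with 4 genes called in each of these fits.

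The order of the levels per length differed between the groups. In shCtrl the order by mean RPKM was ARHGDIA, LCP1, CORO1A, ARHGDIB, WAS and LSP1. ARHGDIB, with 0.857 to 1.07 RPKM, overlapped WAS, with 0.623 to 0.934, and WAS overlapped LSP1, with 0.577 to 0.668, so these neighbours in the order were not separated by their spread. In shRBM39 the order was ARHGDIA, LCP1, ARHGDIB, LSP1, CORO1A and WAS, and no neighbours overlapped. CORO1A thus stood above ARHGDIB and LSP1 in the 3 control libraries and below both in the 3 knockdown libraries, at nearly the same level of its own.

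To see how each blood-cell gene stood against its widely expressed relatives, RPKM ratios were formed within each library, which cancels the scaling of the library. ARHGDIB was 0.534% ± 0.0684 of ARHGDIA in shCtrl and 2.48% ± 0.21 in shRBM39 (SD, n = 3), so ARHGDIA remained the main transcript of the pair in both groups. The log2 ratio differed by 2.22 between the groups, less than the change of ARHGDIB alone because ARHGDIA was higher as well. ARHGDIG, the remaining gene of the inhibitor family, had 3 to 11 counts in a library and was not tested.

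The plastin family held a different balance. LCP1 stood at 93.2% ± 1.09 of PLS3, the plastin of many solid tissues, in shCtrl and at 112% ± 10.6 in shRBM39 (SD, n = 3). The log2 ratio of LCP1 to PLS1, the plastin of intestinal microvilli, was 1.71 ± 0.05 in shCtrl and 2.57 ± 0.14 in shRBM39 (SD, n = 3). PLS3 itself rose by 0.29 and PLS1 fell by 0.30 on the log2 scale, with edgeR adjusted p of 1.05e-06 and 1.02e-05. All 3 plastin genes were thus expressed, and the blood-cell and the intestinal member moved in opposite directions.

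CORO1A was a minor coronin, at 11% ± 0.56 of CORO1B and 12.2% ± 0.682 of CORO1C in shCtrl (SD, n = 3). On the log2 scale its ratio to CORO1B differed by 0.37 and its ratio to CORO1C by -0.26 (shRBM39 minus shCtrl). The log2 fold changes were -0.21 for CORO1B and 0.42 for CORO1C (edgeR adjusted p 8.93e-05 and 3.5e-11). CORO1A itself had a fitted 0.16, so both genes of a pair enter its ratio. WAS was 28.7% ± 5.43 of WASL, which encodes the ubiquitous N-WASP, in shCtrl and 21.3% ± 12.6 in shRBM39 (SD, n = 3), and the ratios of the groups overlapped. The blood-cell Rac gene RAC2 was 9.48% ± 1.62 of RAC1 in shCtrl and 10.9% ± 1.46 in shRBM39 (SD, n = 3), again with overlap.

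**Figure D2:**
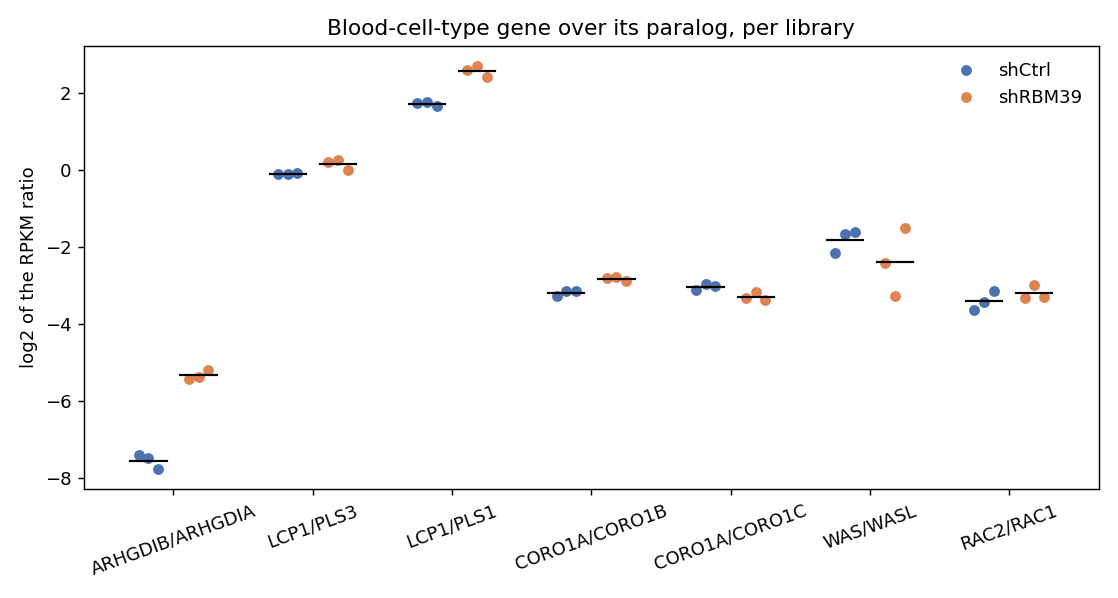
log2 of the RPKM ratio of a blood-cell gene to a paralog in each library (3 shCtrl, 3 shRBM39), with the group mean as a bar. The ARHGDIB/ARHGDIA ratio lies lowest in both groups and moves by 2.22, while the groups overlap for WAS/WASL and RAC2/RAC1.

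Other genes of these families were then counted in lists chosen by function, beside a median log2 fold change of -0.01 over all tested genes and 59.1% called. Of 18 genes of the WASP family and the Arp2/3 complex other than WAS, all were tested and 15 called, 9 higher and 6 lower, which is 83.3% with a median of 0.20. The division followed the parts of the machinery, a split made after the values had been seen. Of 9 Arp2/3 subunit genes, 8 were higher, led by ARPC1A at 0.53 and ARPC5L at 0.51 (edgeR adjusted p 2.09e-13 and 1.12e-10), and ACTR3 was not called at 0.02. Of the 9 activators and their partners, 6 were lower, among them JMY at -1.04, WASF3 at -0.42 and WASL at -0.31 (edgeR adjusted p 1.19e-14, 0.000126 and 0.0029), and only WIPF2 was higher, at 0.33. Under library totals alone, 6 subunits were still called higher, 1 lower, and 6 activators lower.

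Among actin bundlers other than LCP1, more were called lower than higher. All 9 were tested, and 6 were called, 5 lower and PLS3 higher, with LIMA1 at -0.43 and the microvillar ESPN at -0.41 the lowest (edgeR adjusted p 2.55e-11 and 8.47e-10). The abundant ACTN1 and ACTN4 differed by 0.00 and 0.01 on the log2 scale and were not called. The share called was 66.7% against 59.1% of all genes, with a median log2 fold change of -0.09. Library totals alone gave 8 lower and PLS3 higher. Fewer were called lower in other fits, 4 without a filter and 3 without shRBM39 replicate 1. Of 6 coronins other than CORO1A, 5 were tested and 3 called, a share of 60% beside 59.1% of all genes. These were CORO2A at -0.72 (edgeR adjusted p 1.1e-05), CORO1B and CORO1C.

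Genes for known partners of LSP1 and ARHGDIB numbered 16, of which 15 were tested and 12 called, 6 in each direction. The share called was 80%, beside 59.1% of all tested genes, 29.2% higher and 29.9% lower. CFL1, which encodes the filament-severing cofilin, rose by 0.67 and its kinase gene LIMK1 by 0.55, with edgeR adjusted p of 4.91e-17 and 1.75e-10. PRKCA, a protein kinase C gene, was lower at -0.76 and the actomyosin kinase gene ROCK2 at -0.47. MAPKAPK2, the kinase gene for LSP1, was not called, with 46.4 CPM in shCtrl and 45.5 CPM in shRBM39. Under library totals alone this list had 2 called higher and 7 lower, so its balance of directions depends on the scaling.

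A list of 29 genes of the cytoskeleton and its signalling in blood cells, which also holds widely expressed genes such as MSN and TMSB4X, had 16 genes tested and 15 called, 8 higher and 7 lower. The share of 93.8% is above the 59.1% of all genes, but the directions were mixed and the median was 0.01. DESeq2 called 10 of them. CYTIP, a lymphocyte adaptor gene, was higher at 0.95 (1.05 against 2.04 CPM, edgeR adjusted p 0.000513) and RAC2 at 0.49 (edgeR adjusted p 8.05e-05), while STK10 and ARHGAP25 were lower at -0.40 and -0.39. The called genes FERMT3, NCKAP1L, PSTPIP1, MYO1F and ARHGAP9, named here after their values were seen, averaged below 1 CPM and ran from -1.28 to 1.43. DOCK2, LCP2 and ARHGAP15 had 0 counts in the 6 libraries.

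Markers of blood cells were measured in the same libraries. Of 25 marker genes, 6 had 0 counts in all 6 libraries, among them PTPRC (CD45), CD53, CD48, IKZF1 and TYROBP. A count of 0 allows up to 3 counts, or 0.141 to 0.174 CPM in a library, which covers counting error only. PTPRC, SPI1, ITGB2, CD53 and LAPTM5 were set as the defining genes of blood cells when the lists were made. Earlier results of these data were known by then. Of these, SPI1 had 2 to 7 counts and ITGB2 4 to 15. The best expressed markers were CD37, with 130 to 171 counts in a library, and CD4, with 60 to 93, and neither was called (edgeR adjusted p 0.395 and 0.346). Only 6 markers were tested, and 2 were called, LAPTM5 at 1.16 and LYZ at 1.03, both higher (edgeR adjusted p 3.36e-06 and 0.000101), a share of 33.3% against 59.1%. The defining gene LAPTM5, which encodes a lysosomal membrane protein, thus differed in the same direction as ARHGDIB and LSP1. It had 24 to 38 counts in shCtrl and 60 to 62 in shRBM39. The summed level of the 25 markers was 5.14 to 6.15 RPKM in shCtrl and 6.12 to 6.59 RPKM in shRBM39, ranges that overlap. CD37 made up 1.95 RPKM of this sum on average in shCtrl and 1.91 RPKM in shRBM39. The part of such cells in the difference of ARHGDIB and LSP1 was not tested.

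Colon epithelial markers also moved, and in both directions. Of the 14 tested, 12 were called, 8 lower and 4 higher, with a median of -0.24. This is 85.7%, beside 59.1% of all tested genes, 29.9% lower and 29.2% higher. The intestinal transcription factor gene CDX2 was lower at -2.13 and the tight junction gene TJP3 at -1.87 (edgeR adjusted p 2.44e-20 and 1.85e-16), while MUC2 and KRT8 were higher at 0.66 and 0.43. The largest increase was that of KRT20 at 1.82, with 3 to 11 counts in shCtrl and 18 to 25 in shRBM39. The part of these markers in the difference of ARHGDIB and LSP1 was not tested.

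**Figure D3:**
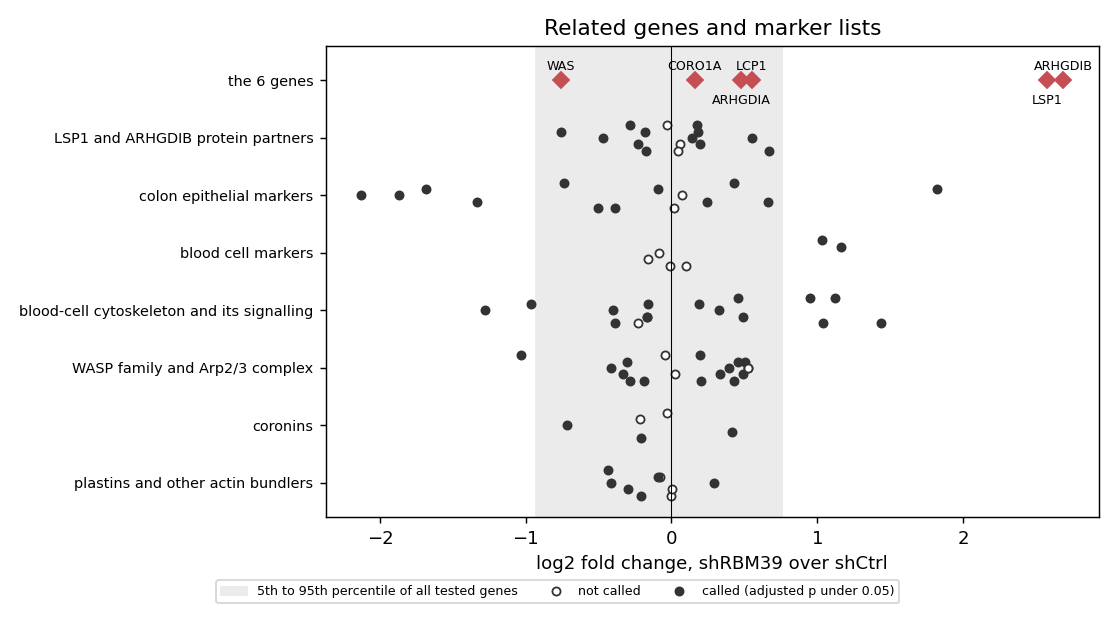
Fitted log2 fold change (shRBM39 over shCtrl) of every tested gene of the lists described, filled where called at an adjusted p under 0.05, with the 6 described genes as diamonds in the top row and the 5th to 95th percentile of all tested genes (-0.93 to 0.76) shaded. ARHGDIB and LSP1 were chosen for their large values, and the genes of the lists run from -2.13 to 1.82.

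The genes around each of the 6 were examined next, using the coordinates of the count table and a window of 250 kb on either side. Of 104 tested neighbours in all, 70 were called, 44 higher and 26 lower, which is 67.3% against 59.1% of all genes. Some of these symbols overlap each other, such as MRPL12 and RP13-1032I1.10 near ARHGDIA, so they are not independent measurements. Around ARHGDIB, 7 neighbours were tested, 2 higher, 3 lower and 2 not called, a share called of 71.4%. The nearest, C12orf60 at 35.4 kb, had 45 to 64 counts in each library and a log2 fold change of 0.09 (edgeR adjusted p 0.667), and no tested gene lay within the window on the other side. The largest increase near ARHGDIB was that of WBP11, a splicing protein gene, at 0.68. ARHGDIB thus differed without a change of like size among the tested genes around it.

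Most tested neighbours of LSP1 were higher in the knockdown. Of 13 tested, 10 were higher and 2 lower, and H19 was not called. The share called was 92.3%, beside 59.1% of all tested genes, and the median log2 fold change was 0.68. TNNI2, a skeletal muscle troponin gene at 11.3 kb, was higher at 0.79 and MRPL23, a mitochondrial ribosomal protein gene at 55 kb on the other side, at 0.72 (edgeR adjusted p 2.56e-05 and 8.32e-11). The growth factor gene IGF2, at 237 kb, was higher at 2.09, with 279 ± 18.8 CPM in shCtrl and 1187 ± 39 CPM in shRBM39 (SD, n = 3, edgeR adjusted p 7.44e-29). The antisense transcript MRPL23-AS1 was lower at -1.44. Several of these 13 symbols overlap each other, among them IGF2, INS-IGF2 and AC132217.4, and CTSD and RP11-295K3.1, so they are not independent measurements. In every fit run 10 were called higher, with 2 called lower or, under DESeq2, without a filter, with at least 10 counts in every library and in 4 of the 6 fits that left out a library, 1.

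Neighbours of the other genes were mixed. The share called was 63.2% around WAS, 51.9% around CORO1A and 70.3% around ARHGDIA, beside 59.1% of all tested genes. LCP1 had 1 tested neighbour, ZC3H13 at 73.2 kb, higher at 0.27. WAS had 19, of which 3 were higher and 9 lower, with the histone methyltransferase gene SUV39H1 at 4.13 kb higher at 0.42 and WDR13 at 67.7 kb lower at -0.44. CORO1A had 27, 11 higher and 3 lower, with BOLA2B at 3.86 kb higher at 0.47 and MAPK3 at 59.3 kb not called at -0.07. BOLA2B has a near-identical copy, so its counts are uncertain. ARHGDIA had 37, 17 higher and 9 lower, with P4HB at 7.03 kb not called at -0.08 and RP11-498C9.15 at 7.02 kb higher at 1.21.

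**Figure D4:**
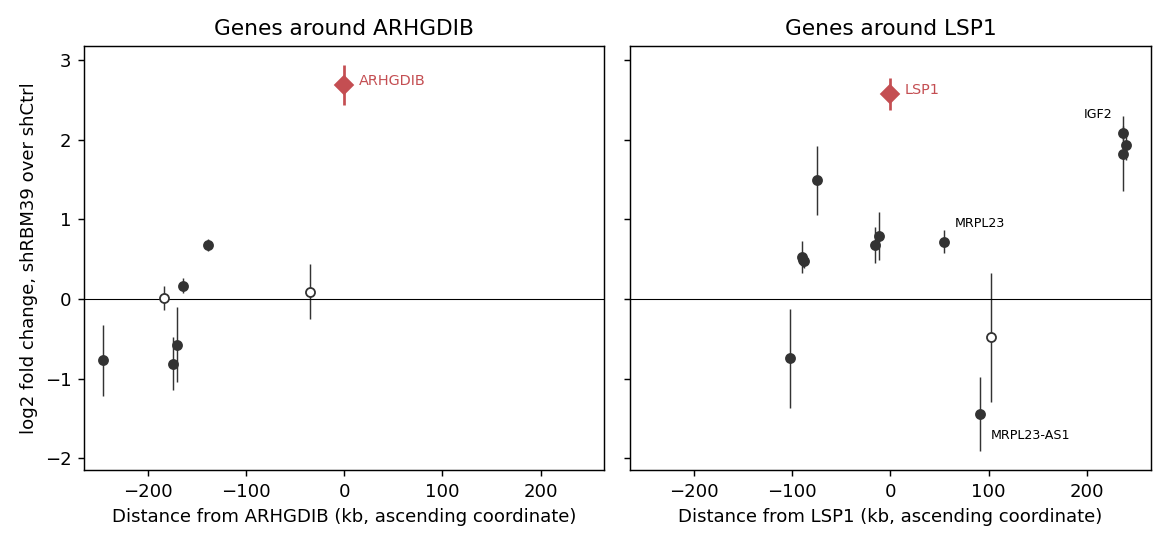
log2 fold change (shRBM39 over shCtrl) of tested genes within 250 kb of ARHGDIB (left) and LSP1 (right) against their distance in kb, filled where called, with bars of 2 standard errors. Around LSP1, 10 of 13 genes lie above 0 and are called, up to IGF2 at 2.09, while around ARHGDIB the highest is 0.68.

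The genes most like ARHGDIB and LSP1 were found by the Euclidean distance between log2 CPM values of the 6 libraries, centred on each gene's mean, among the 12058 genes that averaged 5 CPM or more. ARHGDIB and LSP1 were nearest to each other, at a distance of 0.22, which follows from their choice, since both were picked for large increases of similar size. Both genes passed the cut of 5 CPM only through shRBM39, with means of 1.99 and 3.23 CPM in shCtrl. Genes below the cut were not compared. By Pearson correlation, 0 of the 5 nearest genes of ARHGDIB or of LSP1 were the same. The next nearest to both were SFRP5, a secreted Wnt inhibitor gene, DIO3, a thyroid hormone deiodinase gene, IGF2 and STMN3, a stathmin family gene. Their distances to ARHGDIB were 0.42, 0.55, 0.81 and 0.92, and to LSP1 0.29, 0.40, 0.62 and 0.76. Their log2 fold changes were 2.41, 2.39, 2.09 and 1.98, and the likeness rests on the size of the difference between the groups. IGF2 is the only one of these genes that also lies in the window around LSP1.

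Splicing, which did not choose the genes, was looked up in the deposited records. None of the 1582 records was of any of the 6 genes. The deposited records are a selection of events with a difference, so events of these genes that fell short of it cannot be seen. Of 137 other list genes, 2 had a record, each of mutually exclusive exons. For CORO1C, on chromosome 12, the inclusion levels in the authors' deposited table were 0.44, 0.365 and 0.34 in the group it calls 1 and 0.226, 0.286 and 0.296 in the group it calls 2, with 70 to 92 reads. For ARPC1A, on chromosome 7, they were 0.423, 0.359 and 0.513 against 0.448, 0.241 and 0.141, with 49 to 95 reads and overlapping levels. Neither group is identified there as control or knockdown.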

How the data were processed

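Raw counts per gene symbol and RPKM values were deposited by the authors. Per the labels, libraries were made with a stranded mRNA kit, and the study used unique identifiers. The submitters' processing notes name Trimmomatic 0.36, STAR 2.5.3a, featureCounts (Subread 1.5.1), edgeR 3.12.1 and GRCh38. Collapsing of identifiers, the strand setting and multi-mapped reads are not given in the sources used here, which matters most for overlapping genes and close copies. The deposited RPKM equal the counts scaled by merged exon length and library total (largest relative difference 5.1e-15). Table columns labelled NC were taken to be the shCtrl libraries, as no other control exists among the samples used here. The 6 genes and all lists were chosen with earlier results of these data known.

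Counts were tested with edgeR 4.0.16 in R 4.3.3 (filterByExpr, TMM, quasi-likelihood F test, group as the only term, Benjamini-Hochberg adjustment over 18243 genes, threshold 0.05), after a check on simulated data. The simulation changed few genes and gave every gene the same spread, so it does not cover scaling or error rates where most genes differ. Standard errors come from the fold change and its F statistic. Named were the 6 genes, their paralogs, the 2 highest and 2 lowest called genes of each list with a mean of at least 1 CPM, the nearest tested neighbours, and the 5 nearest genes by distance, while any further gene was named after its values were seen. Alternatives were DESeq2 1.42.0, DESeq2 size factors in edgeR, library totals, no filter, at least 10 counts in every library, limma 3.58.1 on log2(RPKM + 1) and log2(RPKM + 0.1), a replicate block, each library left out, an adjusted p under 0.01, CPM ratios, a 100 kb window and Pearson correlation. Splicing inclusion levels and reads were taken as the authors deposited them from rMATS. Its p-values and differences, and the tally of events, were not used. Protein sequences were not used here, and 1 gene list and 1 marker gene are not reported here.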

Additional observations from a re-analysis of the deposited data

How the results depend on the processing

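The sign of the log2 difference was positive for ARHGDIB, LSP1, ARHGDIA, LCP1 and CORO1A and negative for WAS in every fit run, while CORO1A was called in none and WAS not under DESeq2 or without replicate 2 of either group. The fits on log2(RPKM + 1) and log2(RPKM + 0.1), where the added constant shrinks low genes, gave 1.79 and 2.46 for ARHGDIB and 1.44 and 2.28 for LSP1. They gave 0.35 and 0.36 for ARHGDIA, 0.42 and 0.42 for LCP1, and 0.026 and 0.035 for CORO1A. Library totals alone gave 0.36 for ARHGDIA, 2.45 for LSP1, 0.43 for LCP1 and 0.034 for CORO1A, since they lack the TMM factors. With 1 library left out, log2 fold changes ran from 2.60 to 2.76 for ARHGDIB, 2.53 to 2.65 for LSP1, 0.47 to 0.50 for ARHGDIA, 0.52 to 0.58 for LCP1, 0.11 to 0.19 for CORO1A and -1.21 to -0.47 for WAS. The log2 ratio of ARHGDIB to ARHGDIA then differed by 2.11 to 2.29, that of WAS to WASL by -1.03 to -0.15. The number of called genes was 10790, 9081 under DESeq2 and 10138 to 10263 with 1 library left out. Of the called genes 49.4% were higher, against 33.9% under library totals alone and 33.6% in both fits on log2 RPKM. Within 100 kb in place of 250 kb, 29 neighbours were called in place of 70, as fewer genes lie there. By Pearson correlation, which ignores the size of a change, 0 of the 5 nearest genes of ARHGDIB and 0 of those of LSP1 were shared with the list by distance. With the replicate number as a block 10810 genes were called and ARHGDIB and LSP1 had 2.69 and 2.57. The numbers did not pair the libraries (correlations of deviations from -0.03 to 0.01 for equal numbers), and the samples did not each correlate best with their own number. Depth limits WAS, with 10 to 45 counts in a library, most.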
